A study of Caenorhabditis elegans with 6 samples.

Results

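The insulin-like peptide genes of Caenorhabditis elegans were taken as every row of the deposited table with a symbol of ins- and a number, plus daf-28. This gave 40 of 41862 features. RNA had been sequenced from immunoprecipitated neuronal nuclei of synchronised L1 larvae. The mutant group had 3 libraries of strain OH17055, labelled as null for the CUT homeobox genes ceh-48, ceh-44, ceh-41, ceh-39, ceh-38 and ceh-21 and carrying the UPN INTACT transgene. The control group had 3 libraries of strain OH16748, labelled wildtype and carrying the UPN INTACT transgene otIs790. INTACT tags the nuclei of selected cells for purification, so every animal in both groups carried a transgene, and the values describe nuclear RNA of the pulled-down fraction. Each genotype was represented by its own strain, and the labels do not say whether the replicates were separate cultures, so p-values measure only the spread between these libraries, which may be technical.

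Insulin-like peptides are small secreted hormones that are made as precursors, cut by proprotein convertases, packed into dense core vesicles and released. In the worm they act on the receptor DAF-2, which signals through the kinases AGE-1, PDK-1 and AKT-1 to hold the transcription factor DAF-16 out of the nucleus. Some peptides activate the receptor and others oppose it, and many are made by sensory neurons that report food and crowding, the cues that decide between growth and arrest as a dauer larva. Several are also made in the intestine and other tissues.

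Library depth was 15500882 to 20844986 recovered reads in mutant libraries and 18768796 to 20352179 in control libraries, and a level of 3 reads equalled 2.44 to 3.79 normalized counts, a limit that covers counting error only. In the libraries labelled mutant, 5 of the 6 targeted genes fell and ceh-44 rose, with limma adjusted p from 0.000750 to 0.0179. The mean of ceh-44 was 16831 normalized counts in the mutant and 9563 in the control. The falls differed in size, as in ceh-38 with 2155 in the mutant and 3728 in the control, and ceh-21 with 17.1 and 939. The null label does not state an RNA level. Pan-neuronal genes were detected in every library, and so were muscle markers. As background for the marker counts, 10.5% of all 17900 genes tested fell and 7.56% rose at an adjusted p under 0.05. At an unadjusted p under 0.05 the share of all genes tested was 34.8%. Of 30 pan-neuronal genes 8 fell and 0 rose, and their mean log2 level was 12.595 to 13.33 in mutant libraries and 13.34 to 13.70 in control libraries. Of 7 pharynx markers 3 rose, with 10.48 to 10.54 in mutant and 9.66 to 10.17 in control libraries, and of 7 tested germline markers 2 rose, with 5.93 to 6.60 in mutant and 5.31 to 5.90 in control libraries. Intestine markers, with 0 of 10 past the threshold and 1 at an unadjusted p under 0.05, stood at 8.43 to 8.67 in mutant and 8.33 to 8.69 in control libraries. Muscle markers, with 1 of 10 higher, stood at 13.22 to 13.45 in mutant and 13.26 to 13.56 in control libraries. Epidermis markers, with 1 of 9 tested higher, stood at 5.67 to 7.10 in mutant and 5.09 to 5.96 in control libraries. Glia markers, with 0 of 6 tested past the threshold and 1 at an unadjusted p under 0.05, stood at 5.72 to 6.74 in mutant and 6.08 to 6.44 in control libraries. A replicate block paired libraries of the same number, a pairing that the titles do not state. With it 17 pan-neuronal, 2 glia and 1 muscle gene fell, beside 15.2% of all genes tested. Under the same block 4 pharynx, 4 germline, 3 epidermis, 1 intestine and 1 muscle gene rose, beside 11.1% of all genes tested. None of the 82 marker genes was at 0 in every library, and delm-2 was at 0 in some. The part of these shifts in the results that follow was not tested, and in such bulk samples fewer cells of a type and less RNA per cell cannot be told apart.

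The question was how the mutant and control fractions differ in the RNA of these hormone genes. Of the 40 genes, 27 passed a filter of a mean of at least 10 normalized counts over the 6 libraries, and 9 of these fell in the mutant at an adjusted p under 0.05, while 0 rose. The 9 were ins-1, ins-3, ins-6, ins-17, ins-18, ins-24, ins-26, ins-27 and ins-30, with log2 differences of −3.22 to −0.83. They make up 33.3% of the tested genes and 22.5% of the 40. Among all 17900 genes tested, 18.1% passed the threshold, made up of 10.5% that were lower and 7.56% that were higher in the mutant. The median log2 difference was −0.83 over the 27 peptide genes and −0.02 over all genes tested. Of the 27, 7 had a mean under 10 in the mutant (ins-4, ins-5, ins-6, ins-21, ins-22 and ins-26) or in the control (ins-37) and passed the filter through the other group, so the count and median of the tested genes describe them and support nothing further. At an unadjusted p under 0.05 there were 15 of the 27 (55.6%), against 34.8% of all genes tested. With the replicate block 13 fell (48.1%), the additional genes being ins-2, ins-4, ins-16 and ins-22, and 0 rose. With that block 15.2% of all genes tested were lower and 11.1% higher. A log2 difference here is the mutant mean less the control mean of log2(normalized count + 1), and adjusted p-values are from limma with Benjamini-Hochberg adjustment over all genes tested. Adding 1 shrinks differences between low values, but a library at 0 weighs heavily in a mean of logs, as in ins-2 and ins-16, where edgeR gave −1.88 and −1.66 and this scale −2.60 and −2.58.

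**Figure D1:**
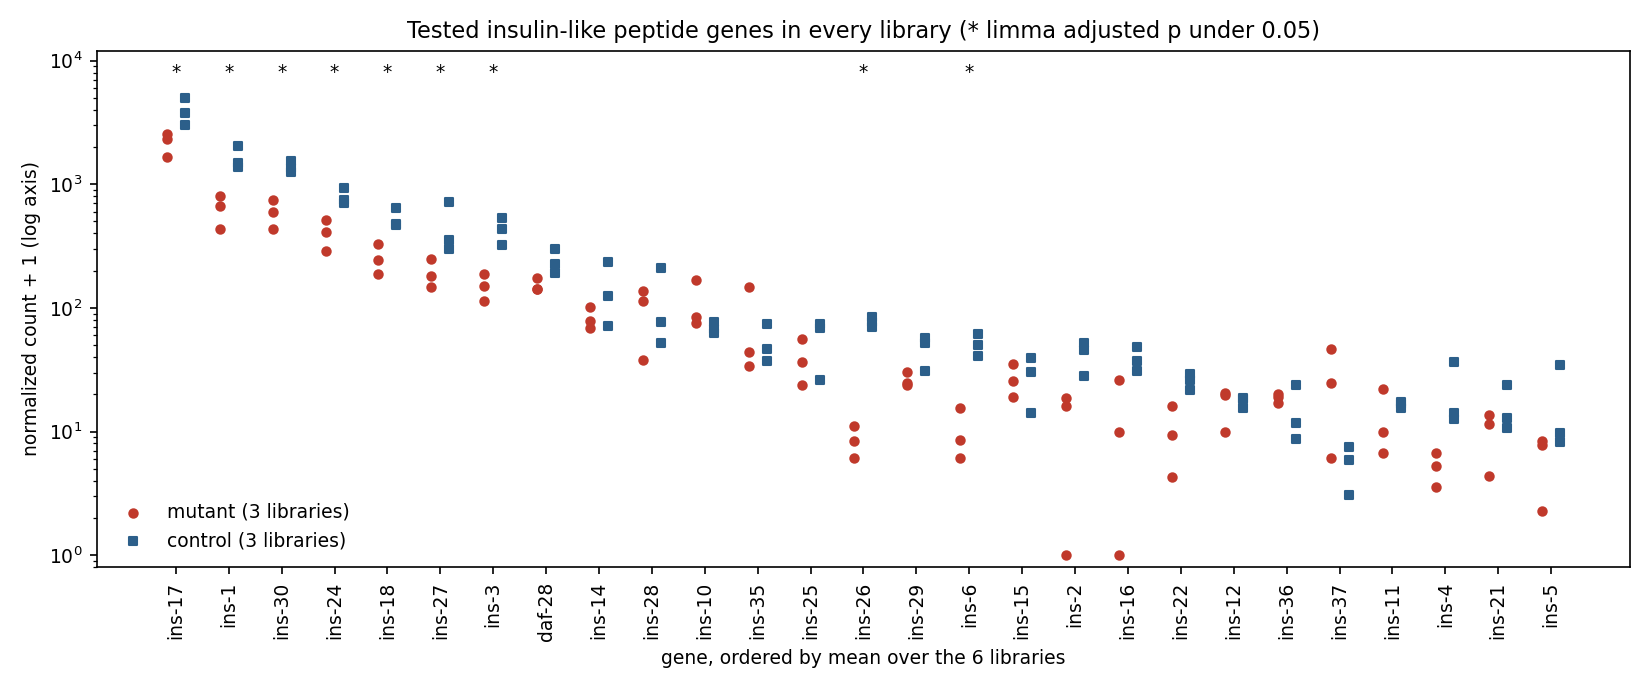
Normalized count + 1 (log axis) of the 27 tested insulin-like peptide genes in the 3 mutant libraries (circles) and the 3 control libraries (squares), ordered by mean; asterisks mark the 9 genes with a limma adjusted p under 0.05. In each of these 9 every mutant library lies below every control library, as for ins-26 with 5.06 to 10.1 in mutant and 68.8 to 83.5 in control libraries.

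The summed normalized counts of the 40 genes were 5933, 4396 and 5208 in mutant replicates 1, 2 and 3, against 9375, 8766 and 12527 in control replicates 1, 2 and 3. Every mutant sum was below every control sum. As a share of all normalized counts the family held 0.0291% ± 0.00277 in the mutant and 0.0511% ± 0.0106 in the control (SD, n = 3 each). A few genes carried most of it. The share of ins-17 alone was 41.8% ± 3.44 in the mutant and 37.96% ± 3.12 in the control, and ins-17, ins-1, ins-30 and ins-24 together held 73.1% ± 3.52 in the mutant and 75.3% ± 1.33 in the control (SD, n = 3 each). These 4 were picked after their values were seen. Both shares overlapped between the groups, while the sums did not.

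Levels of different genes were compared per kilobase of annotated exon, which was found for 39 of the 40 genes. In the mutant ins-17 stood highest at 3914 ± 821 normalized counts per kilobase, and in the control it also stood highest at 7006 ± 1740 (SD, n = 3 each). In the mutant, places 2 to 6 were filled by ins-30 at 872 ± 229, ins-24 at 843 ± 229, ins-1 at 786 ± 233, ins-27 at 614 ± 166 and ins-18 at 587 ± 167 (SD, n = 3 each). In the control the same genes filled these places, with ins-30 at 2035 ± 210, ins-1 at 2033 ± 443, ins-24 at 1649 ± 247, ins-27 at 1471 ± 740 and ins-18 at 1224 ± 234 (SD, n = 3 each). Within places 2 to 6 of either group, neighbours in the order did not differ beyond their spread. Far lower in the mutant order than in the control order was ins-26, at 16.3 ± 5.54 per kilobase in the mutant, place 26, and 165 ± 16.01 in the control, place 12 (SD, n = 3 each). Its mutant value rests on 4, 9 and 12 reads in replicates 1, 2 and 3. Other genes of low level moved too, such as ins-4 from place 24 in the control to 34 in the mutant and ins-6 from 17 to 25, while ins-37 moved up from 33 to 21.

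Peptides known mainly as activators of DAF-2 were taken first, namely daf-28, ins-3, ins-4, ins-6, ins-7 and ins-35. Of these, ins-3 and ins-6 fell, 0 of the 5 tested rose, and ins-7 was too low to test. The gene ins-6 encodes a peptide made in sensory neurons that promotes growth and exit from dauer arrest. It had 5.06, 14.6 and 7.60 normalized counts in mutant replicates 1, 2 and 3, against 59.9, 39.6 and 49.5 in control replicates 1, 2 and 3. The groups did not overlap, the mean was 5.46-fold lower in the mutant, and the log2 difference was −2.42 (SE 0.46, adjusted p 0.00711). Its neighbour ins-3 had 112, 187 and 149 in mutant replicates 1, 2 and 3, against 319, 436 and 537 in control replicates 1, 2 and 3. Again every mutant library was below every control library, with a mean 2.88-fold lower in the mutant and a log2 difference of −1.52 (SE 0.26, adjusted p 0.00458).

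The gene daf-28 encodes an activator made in sensory neurons of the head that opposes dauer arrest. It had 142, 142 and 172 normalized counts in mutant replicates 1, 2 and 3, against 301, 223 and 190 in control replicates 1, 2 and 3. The groups did not overlap, but the log2 difference of −0.62 (interval −1.14 to −0.11 at 95%) did not pass, with an adjusted p of 0.0857, or of 0.0754 with the replicate block. The gene ins-4, whose product acts beside DAF-28 and INS-6, had 2.53, 5.69 and 4.22 in mutant replicates 1, 2 and 3, against 13.1, 35.5 and 11.6 in control replicates 1, 2 and 3. Its log2 difference of −1.91 (SE 0.61) had an adjusted p of 0.0569. Of 15 other fits that tested ins-4, 6 passed, among them the replicate block (0.0401), edgeR (0.0447) and DESeq2 (0.0304). The last 2 activators gave little to compare. The gene ins-35 had 32.9, 147 and 43.1 in mutant replicates 1, 2 and 3, against 35.9, 73.0 and 45.6 in control replicates 1, 2 and 3, with a log2 difference of 0.26 (interval −0.91 to 1.44 at 95%, adjusted p 0.749). Replicate 2 was the highest library of each group, and without mutant replicate 2 the difference was −0.38. The gene ins-7, a peptide of a feedback loop through DAF-16 in the intestine, had 0.813 to 7.60 in mutant and 0 to 1.94 in control libraries.

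Peptides known mainly to oppose DAF-2 signalling were ins-1, ins-17 and ins-18. All 3 fell, as did ins-3 and ins-6 among the activators. The gene ins-1 encodes a peptide close to human insulin in its layout, used by interneurons in learning. It had 800, 431 and 663 normalized counts in mutant replicates 1, 2 and 3, against 1376, 1483 and 2039 in control replicates 1, 2 and 3. The groups stood well apart, with a mean 2.59-fold lower in the mutant and a log2 difference of −1.39 (SE 0.25, adjusted p 0.00550).

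The most abundant family member, ins-17, had 2552, 1669 and 2320 in mutant replicates 1, 2 and 3, against 3759, 3013 and 4935 in control replicates 1, 2 and 3. The groups did not overlap and the log2 difference was −0.83 (SE 0.23, adjusted p 0.0320). That call was lost without mutant replicate 2, mutant replicate 3, control replicate 1 or control replicate 3, with adjusted p of 0.0610, 0.0802, 0.0910 and 0.116, and also under equal totals (0.0540) and without a variance trend (0.0883), always with a lower mutant mean. The gene ins-18 had 330, 187 and 244 in mutant replicates 1, 2 and 3, against 477, 464 and 646 in control replicates 1, 2 and 3. Every mutant library was lower, with a log2 difference of −1.08 (SE 0.24, adjusted p 0.0155). Its call was lost without mutant replicate 3 (0.0579) or control replicate 3 (0.0642).

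**Figure D2:**
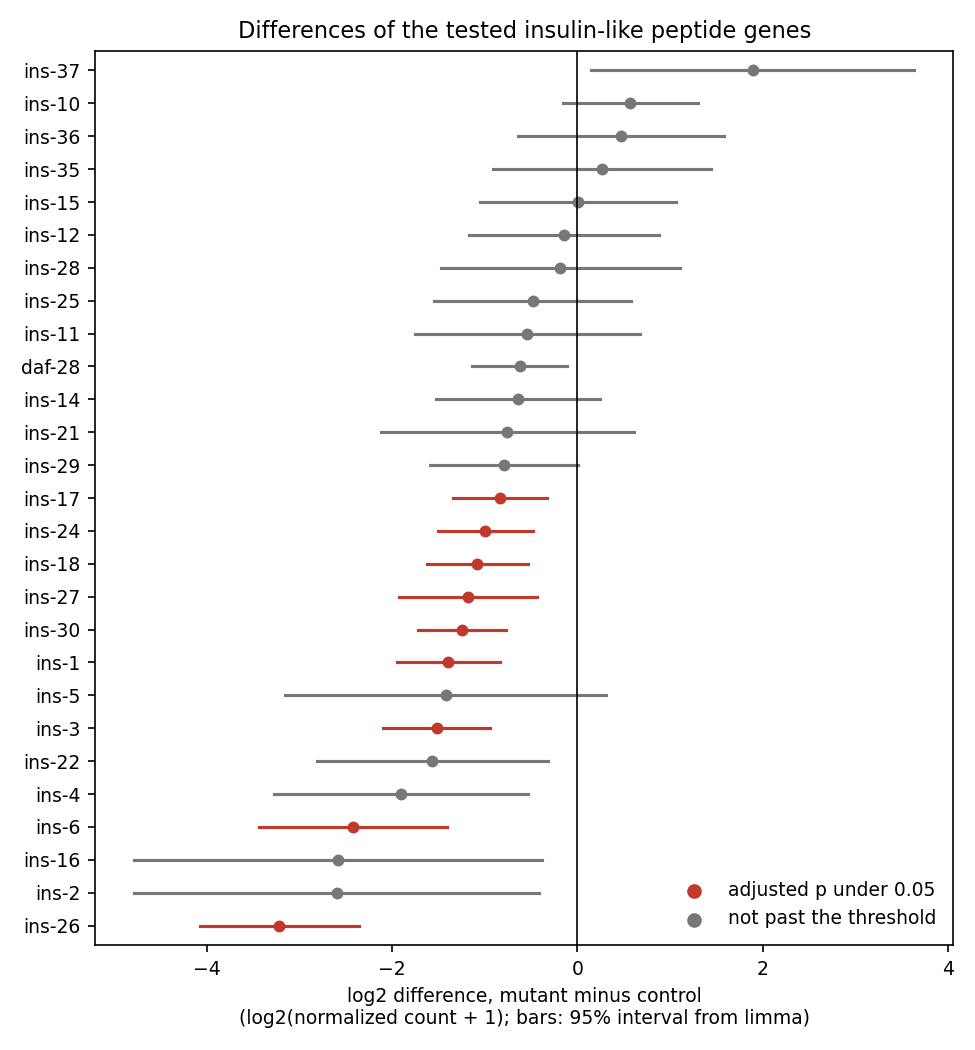
Log2 difference, mutant minus control, of each of the 27 tested insulin-like peptide genes with its 95% interval from limma; red marks the 9 genes with an adjusted p under 0.05 and grey the other 18. Of the 27 points 22 lie below 0, from −3.22 for ins-26, and ins-37 is the highest at 1.89.

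Many of these genes stand beside each other in the genome. In the Ensembl annotation of WBcel235, used only for gene order because the build of the deposited table is not given in the sources used here, 25 of the 40 lie in 7 groups of neighbours with at most 3 other coding genes between members. The largest group, on chromosome I, runs in the order ins-28, ins-29, ins-25, ins-27, ins-24, ins-30 and ins-26. Of these 7 genes 4 fell, the 4 adjacent to each other at the ins-26 end apart from the coding gene ZC334.12 between ins-27 and ins-24. Over all 7 groups 6 of 18 tested members fell, and outside the groups 3 of 9 did. Among all genes tested 10.5% were lower, and whether position matters was not tested. At the edge of the group, ins-26 had 5.06, 7.31 and 10.1 normalized counts in mutant replicates 1, 2 and 3, against 75.1, 68.8 and 83.5 in control replicates 1, 2 and 3. This was the largest fold among the called genes, a mean 10.1-fold lower in the mutant with a log2 difference of −3.22 (SE 0.38, adjusted p 0.000809).

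Next to it, ins-30 had 742, 432 and 592 in mutant replicates 1, 2 and 3, against 1348, 1246 and 1526 in control replicates 1, 2 and 3, a log2 difference of −1.25 (SE 0.21, adjusted p 0.00451). The gene ins-24 had 412, 508 and 290 in mutant replicates 1, 2 and 3, against 700, 743 and 922 in control replicates 1, 2 and 3, a log2 difference of −0.99 (SE 0.23, adjusted p 0.0171). Neither gene had overlapping groups. The gene ins-27 had 179, 246 and 145 in mutant replicates 1, 2 and 3, against 298, 350 and 719 in control replicates 1, 2 and 3, a log2 difference of −1.18 (SE 0.33, adjusted p 0.0356). Control replicate 3 was well above the other control libraries, and without it the difference was −0.80 (adjusted p 0.101). The ins-27 call was also lost without mutant replicate 1 (0.0540), mutant replicate 3 (0.123) or control replicate 2 (0.0734), under equal totals (0.0691) and without a variance trend (0.0874). The ins-24 call was lost without mutant replicate 3 (0.0662), control replicate 2 (0.0554) or control replicate 3 (0.0694) and without a variance trend (0.0551).

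The other end of the chromosome I group gave no call. The gene ins-28 had 135, 36.6 and 112 in mutant replicates 1, 2 and 3, against 76.2, 51.1 and 211 in control replicates 1, 2 and 3, so the groups overlapped, with a log2 difference of −0.18 (interval −1.47 to 1.10 at 95%, adjusted p 0.844). For ins-25 the range was 22.8 to 55.3 in mutant and 25.03 to 73.0 in control libraries (log2 difference −0.48, adjusted p 0.501). For ins-29 it was 22.8 to 29.1 in mutant and 30.1 to 55.5 in control libraries, without overlap (log2 difference −0.79, adjusted p 0.145). The other coding genes within the group had higher means in the mutant, but none passed the threshold. ZC334.12 had 303 ± 13.7 in the mutant and 189 ± 45.1 in the control (SD, n = 3 each), a log2 difference of 0.70 (adjusted p 0.0521). ZC334.13, between ins-28 and ins-29, had 70.6 ± 33.9 in the mutant and 43.3 ± 12.1 in the control (SD, n = 3 each), a log2 difference of 0.62 (adjusted p 0.307).

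**Figure D3:**
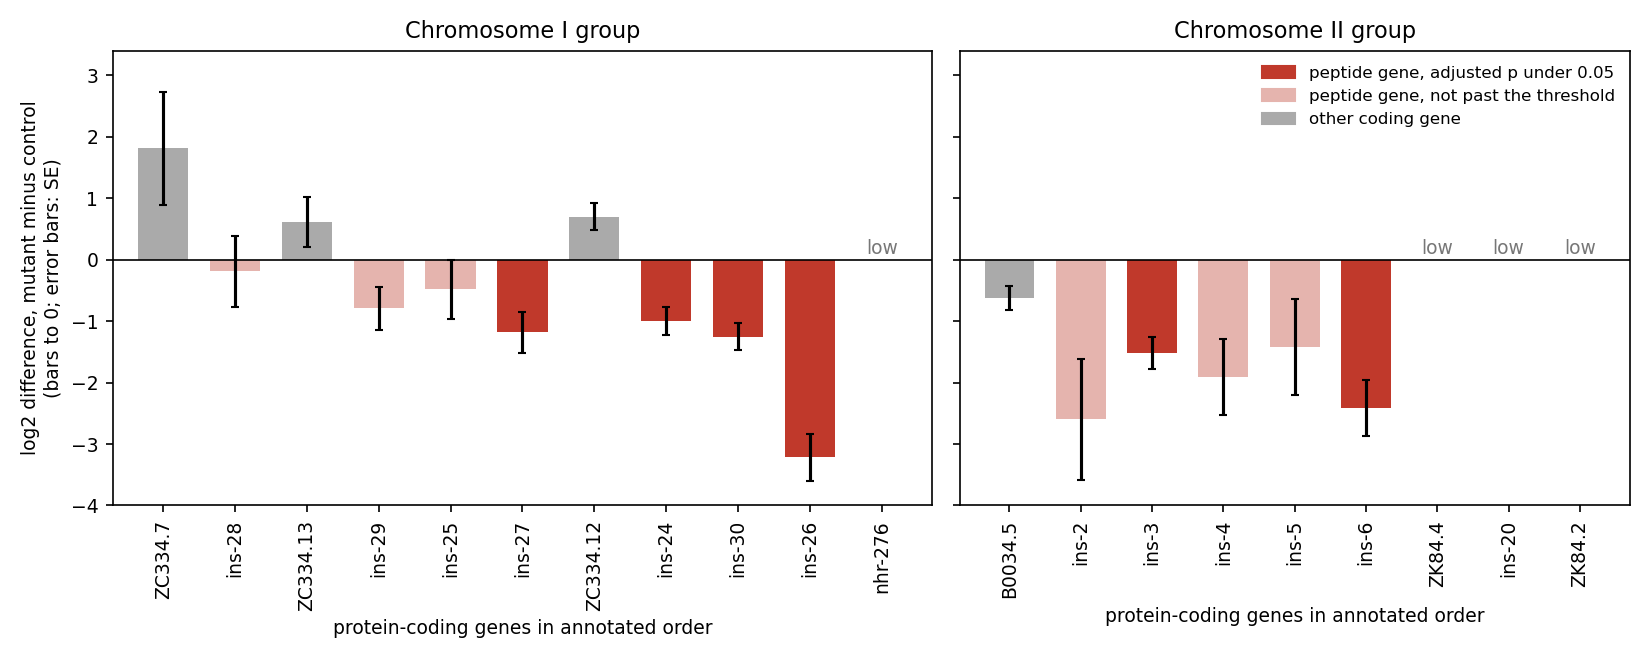
Log2 difference, mutant minus control, of the coding genes in annotated order in the chromosome I and chromosome II groups; bars run from 0, error bars are SE, red and pale red are insulin-like peptide genes past and not past the threshold, grey bars are other coding genes, and "low" marks genes below the filter. In the chromosome I group the differences of peptide genes run from −0.18 for ins-28 to −3.22 for ins-26, and in the chromosome II group those of the 5 tested peptide genes run from −1.42 to −2.60.

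The second largest group, on chromosome II, holds ins-2, ins-3, ins-4, ins-5 and ins-6 side by side, with ins-20 past ZK84.4. All 5 tested genes had lower means in the mutant, 2 of them past the threshold, and ins-20 was too low to test. Besides ins-3, ins-4 and ins-6 above, ins-2 had 15.2, 0 and 17.7 normalized counts in mutant replicates 1, 2 and 3, against 51.2, 44.8 and 27.2 in control replicates 1, 2 and 3. The groups did not overlap, and the log2 difference of −2.60 (SE 0.98) had an adjusted p of 0.0911, and of 0.0476 with the replicate block. Without mutant replicate 2, the library at 0, the difference was −1.23. The gene ins-5 had 1.26, 7.31 and 6.75 in mutant replicates 1, 2 and 3, against 33.8, 7.30 and 8.74 in control replicates 1, 2 and 3, so it stood out in control replicate 1 (log2 difference −1.42, adjusted p 0.220). The coding neighbour on the ins-2 side, B0034.5, had 134 ± 3.93 in the mutant and 208 ± 25.6 in the control (SD, n = 3 each), with an adjusted p of 0.0575.

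On chromosome III the group of ins-21, ins-22 and ins-23 gave no call. The peptide of ins-22 is widely used, tagged with a fluorescent protein, to follow dense core vesicles. The gene had 15.2, 3.25 and 8.44 normalized counts in mutant replicates 1, 2 and 3, against 28.3, 20.9 and 25.2 in control replicates 1, 2 and 3, without overlap. Its log2 difference of −1.57 (SE 0.56) had an adjusted p of 0.0771, and of 0.0497 with the replicate block. Its neighbour ins-21 ranged from 3.38 to 12.64 in mutant and from 9.71 to 22.9 in control libraries (log2 difference −0.76, adjusted p 0.404). Coding genes at each end of this group fell: rgs-1, which encodes a regulator of G protein signalling, had 1729 ± 453 in the mutant and 2978 ± 246 in the control (SD, n = 3 each, adjusted p 0.0248), and M04D8.4 had 2.88 ± 2.44 in the mutant and 17.9 ± 3.54 in the control (SD, n = 3 each, adjusted p 0.0266). M04D8.4 had a mean under 10 in the mutant and passed the filter through the control.

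Of the remaining tested genes none passed. On chromosome III, ins-16 had 8.85, 0 and 25.3 in mutant replicates 1, 2 and 3, against 46.8, 36.5 and 30.1 in control replicates 1, 2 and 3 (log2 difference −2.58, adjusted p 0.0951, and 0.0464 with the replicate block). The groups did not overlap, and mutant replicate 2 was at 0 as it was for ins-2. Without that library the difference was −1.25. The highest log2 difference, 1.89 for ins-37 (interval 0.15 to 3.64 at 95%, adjusted p 0.118), came with 5.06, 45.5 and 23.6 in mutant replicates 1, 2 and 3, against 6.53, 2.09 and 4.85 in control replicates 1, 2 and 3. Mutant replicate 1 lay within the control range, and without it the adjusted p was 0.0187. DESeq2 on recovered reads also called ins-37, with an adjusted p of 0.0219.

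The gene ins-10 had 166, 74.8 and 82.7 in mutant replicates 1, 2 and 3, against 66.4, 61.5 and 75.7 in control replicates 1, 2 and 3 (log2 difference 0.57, interval −0.16 to 1.30 at 95%, adjusted p 0.243). Mutant replicate 1 stood apart. For ins-14 the values were 99.9, 68.3 and 77.7 in mutant replicates 1, 2 and 3, against 69.7, 124 and 235 in control replicates 1, 2 and 3, with overlap (log2 difference −0.64, interval −1.53 to 0.25 at 95%, adjusted p 0.278). The genes ins-11, ins-12, ins-15 and ins-36 had means of 11.9, 15.7, 25.5 and 17.6 in the mutant, against 15.5, 16.6, 26.9 and 13.7 in the control, with overlapping groups and adjusted p from 0.507 to 0.997. The gene ins-11 is known for a signal from intestine to neurons in pathogen learning.

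The groups did not overlap for 15 of the 27 tested genes, each lower in the mutant (55.6%), against 20.4% of all genes tested. Of these 15, 9 passed the threshold and 6 did not, namely daf-28, ins-2, ins-4, ins-16, ins-22 and ins-29. The 15 include ins-4, ins-6, ins-22 and ins-26, which had a mean under 10 in the mutant and passed the filter through the control. The share of 55.6% therefore describes the tested genes and supports nothing further.

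The 13 genes below the filter were ins-7, ins-8, ins-9, ins-13, ins-19, ins-20, ins-23, ins-31, ins-32, ins-33, ins-34, ins-38 and ins-39, with means of 1.03 to 6.53 normalized counts over the 6 libraries. They were too low to test at this depth, and none exceeded 16.9 in any library, the value of ins-39 in mutant replicate 3. Of these, ins-8 was at 3 reads or fewer in all 6 libraries, with 0 in each mutant library and 1.09, 3.13 and 1.94 in control replicates 1, 2 and 3. Groups also did not overlap for ins-31, which was higher in the mutant. It had 10.1, 5.69 and 3.38 in mutant replicates 1, 2 and 3, against 2.18, 3.13 and 2.91 in control replicates 1, 2 and 3. RefSeq lists ins-38 as a pseudogene. The coding neighbour of ins-31, chil-24, rose, with 1082 ± 186 in the mutant and 285 ± 68.5 in the control (SD, n = 3 each, adjusted p 0.000800). The coding neighbour of ins-19, srh-71, had a lower mean in the mutant and did not pass (adjusted p 0.0505). In the annotation, exons of ins-10, ins-13, ins-34, ins-36 and ins-37 overlap exons of other genes, and the use of strand in counting is not given in the sources used here, so their values are uncertain. The partner of ins-10 on the opposite strand, vps-39, had 837 ± 6.99 in the mutant and 653 ± 58.0 in the control (SD, n = 3 each, adjusted p 0.134). The partner of ins-36, Y53H1A.7, fell, with 8.52 ± 4.98 in the mutant and 42.4 ± 6.84 in the control (SD, n = 3 each, adjusted p 0.0112), and the partner of ins-13, acdh-2, rose (adjusted p 0.0383). Y53H1A.7 had a mean under 10 in the mutant and acdh-2 in the control (2.71), so each passed the filter through the other group.

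Genes for processing and release of peptide hormones were compared next. Of 13 listed genes 4 fell and 1 rose, with a median log2 difference of −0.50. That is 38.5% past the threshold, beside 18.1% of all genes tested. The genes egl-3, egl-21, sbt-1, ida-1 and unc-31 also stand in the pan-neuronal list, and egl-3 and sbt-1 are counted among those that fell in both. The protein convertase gene egl-3, which cuts peptide precursors, had 75703, 50872 and 80371 normalized counts in mutant replicates 1, 2 and 3, against 154107, 138221 and 173045 in control replicates 1, 2 and 3 (log2 difference −1.19, SE 0.26, adjusted p 0.0148). The gene sbt-1, for the chaperone of that convertase, had 12534 ± 4723 in the mutant and 27104 ± 3871 in the control (SD, n = 3 each, log2 difference −1.18, adjusted p 0.0220). The other 2 that fell act in vesicle formation and release. The dense core vesicle gene hid-1 had 1047 ± 173 in the mutant and 2295 ± 191 in the control (SD, n = 3 each, log2 difference −1.14, adjusted p 0.00284), and aex-6, which encodes the release factor Rab27, had 997 ± 89.4 in the mutant and 1681 ± 208 in the control (SD, n = 3 each, log2 difference −0.75, adjusted p 0.0145). The convertase gene aex-5, known from intestine and muscle, rose, with 488 ± 177 in the mutant and 246 ± 63.1 in the control (SD, n = 3 each, log2 difference 0.96, adjusted p 0.0453). The furin-type convertase gene kpc-1 had 6119 ± 708 in the mutant and 6130 ± 675 in the control (SD, n = 3 each), and the interval of its log2 difference ran from −0.38 to 0.38 at 95%. With the replicate block 8 of the 13 fell and 1 rose, 69.2% against 26.3% of all genes tested, and without control replicate 1 a single call was left.

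The receptor and the chain below it were compared next. Of 21 signalling genes 2 passed the test, both lower, which is 9.52% beside 18.1% of all genes tested. At an unadjusted p under 0.05 there were 9, or 42.9% beside 34.8% of all genes tested. The median log2 difference was −0.28. The receptor gene daf-2 had 62323, 48485 and 51446 normalized counts in mutant replicates 1, 2 and 3, against 54354, 52008 and 50384 in control replicates 1, 2 and 3, with overlapping groups and a log2 difference of 0.04 (interval −0.42 to 0.51 at 95%, adjusted p 0.905). The gene daf-16, for the forkhead factor that DAF-2 signalling restrains, fell to 10881 ± 2964 in the mutant, against 19563 ± 1540 in the control (SD, n = 3 each, log2 difference −0.88, adjusted p 0.0236). The 14-3-3 gene par-5, whose product binds DAF-16, fell to 4026 ± 502 in the mutant, against 6228 ± 1087 in the control (SD, n = 3 each, log2 difference −0.62, adjusted p 0.0455). With the replicate block 5 fell and 2 rose, or 33.3% beside 26.3% of all genes tested. The number called was 6 without mutant replicate 1, 1 without mutant replicate 2 and 0 without mutant replicate 3, control replicate 1, control replicate 2 or control replicate 3.

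Of 13 genes known to be raised by DAF-16, 12 were tested, 2 fell and 0 rose, with a median log2 difference of −0.89. That is 16.7% past the threshold, beside 18.1% of all genes tested in both directions and 10.5% for lower alone. At an unadjusted p under 0.05 there were 5, or 41.7% beside 34.8% of all genes tested. The superoxide dismutase gene sod-3 had 24.02, 65.8 and 15.2 normalized counts in mutant replicates 1, 2 and 3, against 164, 402 and 51.5 in control replicates 1, 2 and 3. The groups overlapped, and within each number the mutant library was the lower (log2 difference −2.34, SE 0.71, adjusted p 0.0464, and 0.00134 with the replicate block). The noncoding RNA tts-1 fell to 5055 ± 959 in the mutant, against 10864 ± 3822 in the control (SD, n = 3 each, log2 difference −1.05, adjusted p 0.0312). With the replicate block 6 of the 12 fell, beside 15.2% of all genes tested, and 0 rose, among them the small heat shock genes hsp-12.3 and hsp-12.6. No gene of this list passed without mutant replicate 3 or control replicate 2, 1 did without control replicate 1 or mutant replicate 1, and 5 did without mutant replicate 2.

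**Figure D4:**
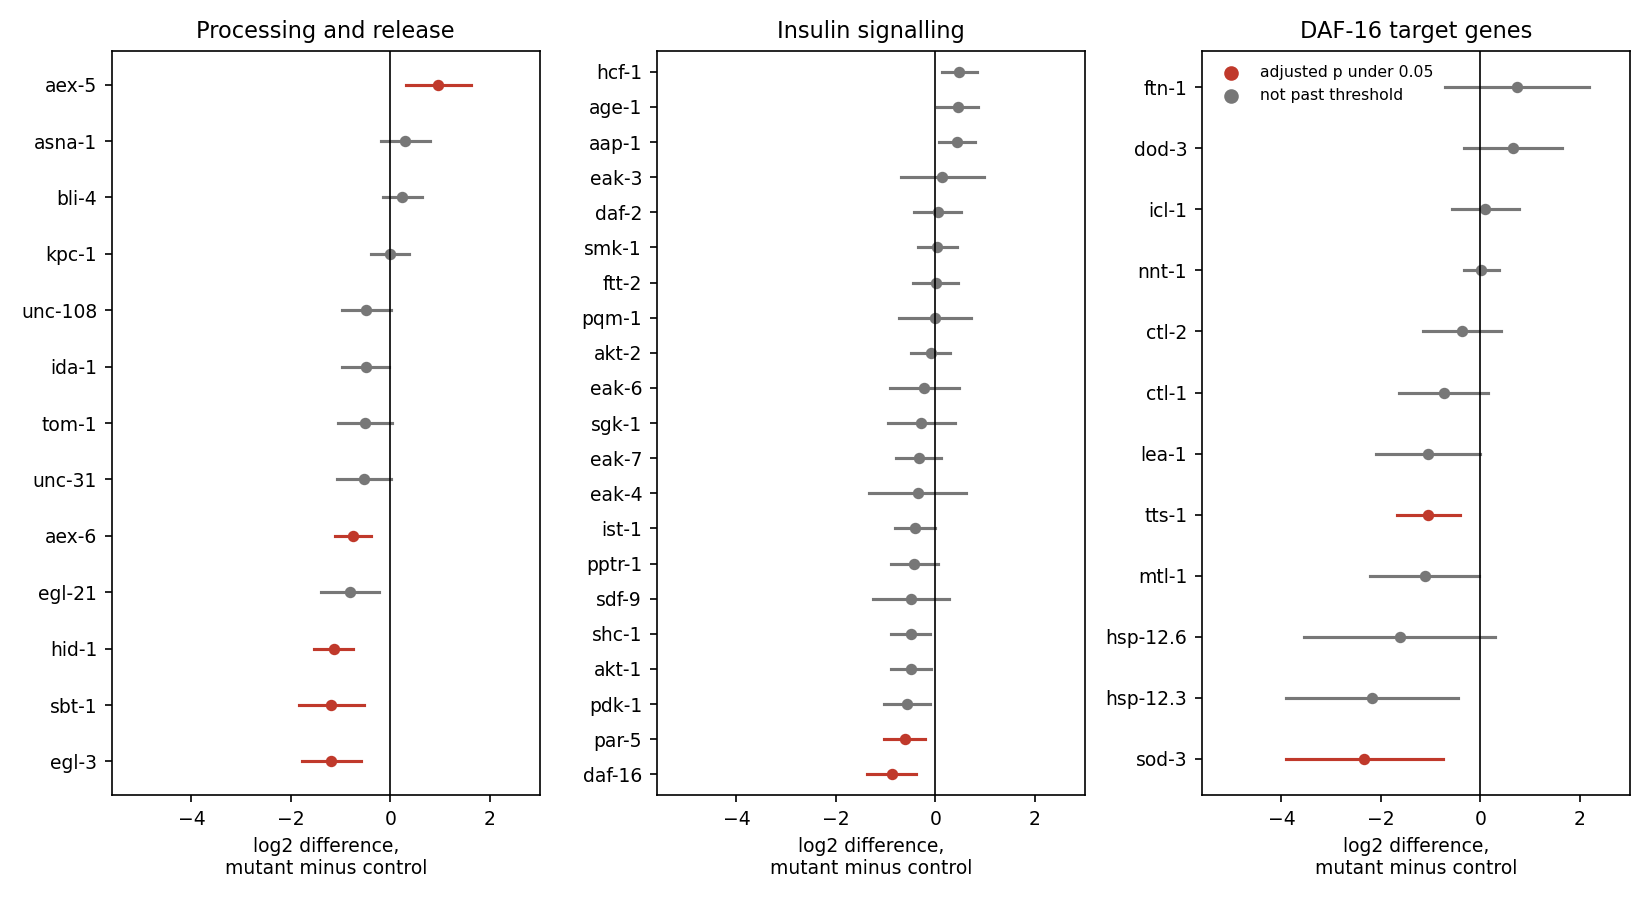
Log2 difference, mutant minus control, with 95% intervals from limma for genes of peptide processing and release (13 genes), insulin signalling (21) and DAF-16 targets (12); red marks an adjusted p under 0.05. In the processing panel egl-3, sbt-1, hid-1 and aex-6 lie below 0 and aex-5 above, in the signalling panel daf-16 and par-5 lie below, and in the third panel sod-3 and tts-1 lie below.

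Genes of the other large neuropeptide families are given for scale. Of 31 tested FMRFamide-like peptide genes 18 fell and 1 rose (61.3% past the threshold). Of 71 tested neuropeptide-like protein genes (of 75) 32 fell and 1 rose (46.5%). The share was 33.3% for the insulin-like genes and 18.1% for all genes tested. The median log2 differences of the FMRFamide-like and neuropeptide-like protein genes were −0.75 and −0.72, beside −0.83 for the insulin-like genes. The insulin-like median includes 6 genes with a mean under 10 in the mutant that passed the filter through the control. Whether the families differ from each other was not tested. The insulin-like genes were the lowest of these families, with a median of gene means of 16.5 normalized counts, against 2572 for the FMRFamide-like and 590 for the neuropeptide-like protein genes, values that are not divided by gene length.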

How the data were processed

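The deposited table holds a signal per gene and library, namely counts that the authors divided by 1 DESeq2 size factor per library, per the table's own name. The submitters' processing notes name STAR, featureCounts and DESeq2 without versions. The build, annotation, strand setting and treatment of shared reads are not given in the sources used here. Every value was a whole multiple of 1 step per library (100% within 0.01 reads), which gave back whole reads.

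Values were transformed to log2(normalized count + 1) and fitted with limma 3.58.1 (R 4.3.3), using group as the factor and a variance trend. Of all features, 17900 had a mean of at least 10 and entered the Benjamini-Hochberg adjustment, and genes under 0.05 were called. Scripts were tested on simulated data. Groups and numbers come from the sample titles. The titles do not state a pairing. Deviations from group means correlated across genes at 0.25, 0.20 and 0.15 for same-numbered libraries and at −0.20 to 0.0049 for others. These deviations sum to 0 in each group, so the correlations are not independent. The numbers were taken to pair the libraries for the replicate block, a choice made from these same data.

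Alternatives were pseudocounts of 0.5 and 5, other filters and scalings, edgeR 4.0.16 and DESeq2 1.42.0 on recovered reads, and leaving out each library. Members and lists were chosen with earlier results of these data known. Every member was accounted for, and values in every library were given for those past the threshold or with a mean of at least 50. Exon lengths and gene order come from Ensembl release 115. Promoter and protein sequences were not used here, and 1 gene of the signalling list is not reported here and enters none of its counts.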

Additional observations from a re-analysis of the deposited data

How the results depend on the processing

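Of the 9 genes that fell, ins-1, ins-3, ins-6, ins-26 and ins-30 passed in every alternative that tested them. The other 4, ins-17, ins-18, ins-24 and ins-27, lost their call in 6, 2, 4 and 6 of 17 alternatives, each time with the same direction. The number of peptide genes that fell ranged from 5 to 10 with 1 library left out (5 without control replicate 3), and was 10 with edgeR, 10 with DESeq2, 7 under equal totals and 13 with the replicate block. The number that rose was 1 with DESeq2 (ins-37) and 0 to 1 with 1 library left out. The signalling list had 1 call without a filter, 1 with the median gene centred, 4 under equal totals, 7 with the replicate block, 4 with DESeq2, 0 without a variance trend and 0 to 6 with 1 library left out. The processing and release list had 9 calls with the replicate block, 2 without a variance trend and 1 to 8 with 1 library left out. The DAF-16 target list had 1 call under quantile normalization, 0 under equal totals, 6 with the replicate block, 0 without a variance trend and 0 to 5 with 1 library left out. The cause was not tested. Equal totals moved the median gene to 0.15 on the log2 scale, against −0.02 as deposited. Over all genes the lower calls numbered 1357 and the higher 2118 under equal totals, against 1886 lower and 1353 higher as deposited.

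Sign changes occurred in genes that never passed: ins-12 was at 0.022 under equal totals, and ins-15 was at −0.0087 with a pseudocount of 5, −0.027 under quantile normalization, −0.066 with edgeR and −0.074 with DESeq2. With 1 library left out, ins-12 ran from −0.33 to 0.20, ins-15 from −0.43 to 0.32, ins-28 from −0.62 to 0.39 and ins-35 from −0.38 to 0.68. Depth limits the 13 genes below the filter.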
